A study of Mus musculus with 54 samples.

Results

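Subdural CNS-associated macrophages (sdCAMs), the leptomeningeal and perivascular macrophages, were compared with microglia (MG), the macrophages of the brain parenchyma, from the same mice after injection of lipopolysaccharide (LPS). The members were the 6 bulk RNA-seq libraries of mice V1m, V2m and V4f, which carried the labels Ccr2KO and Vehicle+LPS, out of 54 libraries in the series. Each mouse gave 1 sdCAM and 1 MG library, so that 3 libraries per cell type were compared within mice.

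The study sorted macrophages from dissociated mouse brains without choroid plexuses and sequenced their RNA in WT, Ccr2-deficient and reporter mice. By their labels, the mice that gave both the sdCAMs and the MG were Ccr2-/-, a germline deletion of the chemokine receptor that monocytes need to leave the bone marrow; the Ccr2 counts given below did not follow these labels. The 3 mice of the comparison had received the vehicle (CTL) of BLZ945, a CSF1 receptor blocker used to deplete CNS macrophages, and LPS was given intraperitoneally 12 h before sorting, 8 weeks after treatment. For context, the same cell types were used from 3 untreated mice with PBS and from 3 mice given BLZ945 and LPS, all labelled Ccr2-/-, and from 3 WT mice given CTL and LPS. The untreated mice had received no vehicle, so that the vehicle and LPS cannot be told apart in comparisons with them. The study began treatment in young adult mice by its methods, ages of single mice were not given in the sources used here, and mice of both sexes were used. The sdCAM gate took CD206+ cells, and Mrc1, which encodes CD206, is therefore no finding between the cell types.

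LPS is a component of the outer membrane of Gram-negative bacteria that is sensed through CD14, MD-2 and TLR4. The receptor signals through MyD88 to NF-kappaB and through TRIF to interferon regulatory factors, and macrophages respond with cytokines, chemokines, acute phase proteins and, through secreted interferon, with interferon-stimulated genes. Macrophages at the borders of the brain lie next to blood vessels and cerebrospinal fluid, whereas MG lie behind the blood-brain barrier and keep a program that depends on TGF-beta and on the transcription factor SALL1.

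Libraries held 7887891 to 11330781 counts. The 50 genes with the most counts took 26.6 to 27.7% of each sdCAM library and 20.6 to 21.8% of each MG library. Levels are given as CPM (counts scaled to library size, by TMM), in the order of mice V1m, V2m and V4f, and 3 counts, taken as the detection floor, corresponded to 0.218 to 0.378 CPM. Over all genes, libraries of the same cell type correlated with r = 0.945 to 0.953 in sdCAMs and 0.975 to 0.979 in MG, against 0.802 to 0.825 between cell types. The titles of these libraries swapped MG and sdCAM relative to the library names and the cell type characteristics, and the last 2 were used. The markers fitted these names. The 21 border macrophage markers summed to 16480, 14920 and 15610 CPM in sdCAMs and to 737.1, 837 and 977.6 CPM in MG, and the 24 homeostatic microglial markers to 2937, 3337 and 3387 CPM in sdCAMs and to 26700, 27890 and 24590 CPM in MG. In the same mouse, microglial markers lay in sdCAMs at a median of 9.07, 10 and 12.5% of their MG level, whereas border markers lay in MG at a median of 0.215, 0.111 and 0.358% of their sdCAM level.

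Markers of other cells were low but not equal between the cell types. Summed monocyte markers lay at 159.2, 100.8 and 183.4 CPM in sdCAMs and at 12.61 to 13.9 CPM in MG, most of it in sdCAMs from a single member of the list, while the defining marker Ly6c2 had 0, 26 and 10 counts in sdCAMs and 10, 4 and 10 in MG. Dendritic cell markers summed to 73.81, 111.4 and 153.4 CPM in sdCAMs and 8.571 to 21.76 CPM in MG, carried by Cd209a. Clec9a was at 0 in all 6 libraries, Flt3 was at 0 in sdCAMs and had 34, 28 and 6 counts in MG, and Xcr1 had 1, 6 and 19 counts in sdCAMs and 3, 0 and 0 in MG. Neutrophil markers summed to 323.5 to 371.1 CPM in sdCAMs and 181.9 to 214.2 CPM in MG, mostly from Csf3r, and 2 of the 4 neutrophil markers tested were higher in sdCAMs. These were S100a8, at 57.94, 67.99 and 88.27 CPM against 6.478, 5.275 and 6.109 CPM, and Mmp8, at 16, 17.71 and 27.34 CPM against 1.456, 0.08241 and 2.362 CPM. The other 2, Csf3r and Cxcr2, were not called, at log2 fold changes of 0.54 and -3.82. Levels of all 4 did not overlap between the cell types. S100a9 had 7, 6 and 4 counts in sdCAMs against 1, 1 and 0 in MG, Camp had 2, 7 and 21 against 0, 3 and 4, and Ly6g was at 0 in all 6 libraries. Oligodendrocyte markers were at 153.6 to 384 CPM in sdCAMs and 57.59 to 131.8 CPM in MG, fibroblast markers at 20.27 to 31.62 CPM and at most 0.8734 CPM, neuron markers at 23.05 to 50.49 CPM and 10.83 to 18.12 CPM, and choroid plexus markers, carried by Enpp2, at 43.08 to 64.64 CPM and 3.626 to 10.34 CPM. Astrocyte markers summed to 176.3 to 227.2 CPM in sdCAMs and 311.2 to 322.3 CPM in MG. Of the 6 astrocyte markers tested, however, 3 were higher and 1 was lower in sdCAMs, with a median log2 fold change of 2.29. Their sum therefore does not give the direction of single members. B cell markers, carried by Ighm, summed to 26.67 to 32.09 CPM and 55.71 to 75.33 CPM, and endothelial markers to 4.988 to 17.84 CPM and 21.18 to 27.28 CPM. T cell, NK cell, mast cell and mural cell markers stayed at or below 8.943 CPM, and erythroid markers reached 44.48 CPM in sdCAMs of V4f and 19.51 CPM in MG of V1m. The part of these cells in the results was not tested. In bulk RNA, fewer cells of a type and less RNA per cell cannot be told apart.

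Ccr2 itself lay at 5.29, 2.952 and 3.128 CPM in sdCAMs and at 3.858, 4.121 and 3.502 CPM in MG, and the cell types overlapped (log2 fold change -0.02, SE 0.66). In sdCAMs of WT mice after CTL and LPS, Ccr2 lay at 0.771, 0 and 0.303 CPM, under floors of 1.16, 3.29 and 0.91 CPM in these libraries. In WT MG it lay at 4.81, 2.81 and 0.654 CPM, which overlapped the MG labelled Ccr2-/-. Ccr2 thus did not follow the labels in either cell type. The order in sdCAMs went against them but rests on 2, 0 and 1 counts in WT, and the genotype rests on the labels alone.

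After LPS, sdCAMs and MG of the mice labelled Ccr2-/- differed in 2331 of 11293 genes tested. A differentially expressed gene (DEG) had an adjusted p under 0.05 in edgeR's quasi-likelihood test with mouse as a block, with Benjamini-Hochberg adjustment over all genes tested, and changed by more than 1 on the log2 scale. Of these, 1235 genes (10.9%) were higher and 1096 genes (9.71%) were lower in sdCAMs. In 2305 of the 2331 DEGs the levels of the cell types did not overlap, as in 5714 (50.6%) of all genes tested. The differences were more often very large in the direction of sdCAMs, with 359 DEGs over 16-fold higher and 121 over 16-fold lower. The median log2 fold change of all genes tested was -0.059. The p-values rest on how the difference between cell types within a mouse varied over these 3 mice, with a spread estimated in part from all genes.

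**Figure D1:**
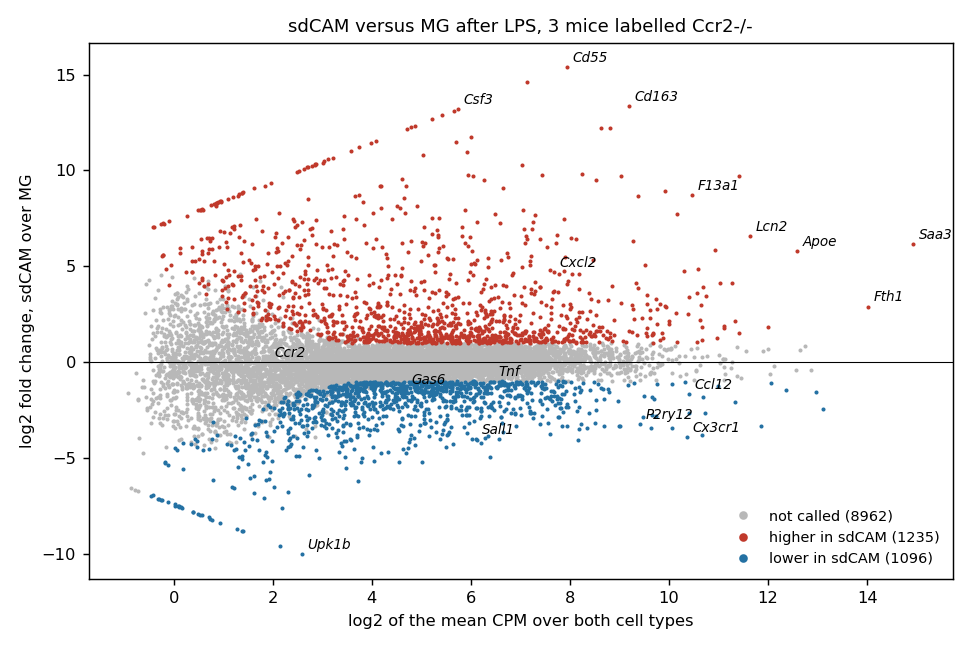
Log2 fold change of sdCAMs over MG after LPS (y axis) against the log2 mean CPM of both cell types (x axis) for 11293 genes, with 1235 DEGs higher in sdCAMs in red, 1096 lower in blue and all other genes in grey. Changes over 16-fold are more numerous towards sdCAMs (359) than towards MG (121), and points on slanted lines at the left are genes at or near 0 in 1 cell type, whose fold is set by the prior count of the model.

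The genes with the smallest p were led by markers of border macrophages and by enzymes and receptors. F13a1, which encodes the A subunit of coagulation factor XIII, lay at 3042, 2692 and 2772 CPM in sdCAMs and at 6.551, 7.088 and 7.331 CPM in MG (log2 fold change 8.70, SE 0.16, adjusted p by edgeR = 1.6e-09). Gpx3, a secreted glutathione peroxidase, lay at 800.5, 1253 and 1066 CPM against 1.019, 1.401 and 1.385 CPM (log2 fold change 9.70, SE 0.18). All sdCAM libraries lay far above all MG libraries for both. Apoe, the lipid carrier apolipoprotein E, lay at 10640, 13810 and 11750 CPM in sdCAMs and at 202.1, 209.8 and 258.7 CPM in MG (5.80, SE 0.14). Pla2g7, which inactivates platelet-activating factor, lay at 2323, 2252 and 2273 CPM against 11.35, 7.912 and 13.93 CPM (7.75, SE 0.19), and Pirb, an inhibitory receptor for MHC class I, at 1250, 1585 and 1424 CPM against 41.27, 40.71 and 46.51 CPM (5.09, SE 0.14). Cd163, the scavenger receptor for haemoglobin-haptoglobin, Steap4, a metalloreductase, Ccr1, a receptor for CC chemokines, Slfn1 of the Schlafen family, Slc7a2, a cationic amino acid transporter, Ctla2a and Mrc1 completed the 12 higher genes.

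Of the 12 lower genes, Cx3cr1, the receptor for fractalkine on neurons, lay at 146.1, 138.8 and 201.9 CPM in sdCAMs and at 2544, 2329 and 2589 CPM in MG (log2 fold change -3.91, SE 0.14, adjusted p by edgeR = 5.32e-08). Spint1, an inhibitor of serine proteases, lay at 31.49, 29.21 and 33.59 CPM against 572.8, 568.3 and 494.5 CPM (-4.07, SE 0.15). The tetraspanin Cd9 lay at 55.04, 50.89 and 54.91 CPM against 700.7, 532.1 and 564.8 CPM (-3.43, SE 0.14). The others included Slco2b1, an organic anion transporter, Ptgs1 (cyclooxygenase 1), Tgfbr1, P2ry12, Siglech, Itgb5, Sparc and Olfml3, with log2 fold changes of -3.77 to -2.82.

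Identity genes were read first. Of the 21 border macrophage markers, 18 were higher and 1 was lower in sdCAMs, with a median log2 fold change of 8.7, or 7.88 with 6 members that were at or under the floor in all MG libraries set at their bound. Pf4, the chemokine platelet factor 4, lay at 895.8, 806 and 1002 CPM in sdCAMs and at 0.5095, 0 and 0 CPM in MG, and Cd163 at 1107, 1147 and 1271 CPM against 0.2184, 0 and 0.08145 CPM (adjusted p by edgeR = 5.63e-09). The macrophage lectins Mgl2 and Clec10a were at 0 in every MG library and were at least 249-fold and at least 235-fold higher in sdCAMs, computed against 3 counts per library. Siglec1 (sialoadhesin) was detected in both cell types, at 535.9, 496.1 and 588.2 CPM in sdCAMs and at 39.74, 39.15 and 41.13 CPM in MG (log2 fold change 3.79, SE 0.13).

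Single border markers did not share this separation. Gas6, a bridging ligand of the TAM receptors that bind dying cells, was lower in sdCAMs, at 11.34, 13.44 and 17.14 CPM against 35.59, 39.06 and 39.1 CPM (log2 fold change -1.42, SE 0.23, adjusted p by edgeR = 0.0011). The transcription factor Maf (186.3, 181.9 and 209.3 CPM against 105.3, 145.9 and 104.1 CPM) and the scavenger receptor Stab1 (297.9, 304.7 and 356.1 CPM against 207.5, 258.4 and 234.6 CPM) had log2 fold changes of 0.76 and 0.50, under the limit, and Tgfbi, higher at 1.18, was at 0.97 without V1m. Lyve1, a hyaluronan receptor of perivascular and leptomeningeal macrophages, lay at 136.9, 144.4 and 179.9 CPM in sdCAMs and at 0, 0 and 0.6516 CPM in MG, and Cd38, an enzyme that consumes NAD, at 6135, 5280 and 4900 CPM against 8.807, 1.071 and 12.79 CPM (9.72, SE 0.55).

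None of the 24 homeostatic microglial markers was higher in sdCAMs and 22 were lower, with a median log2 fold change of -3.29. The purinergic receptor P2ry12, with which MG sense released nucleotides, lay at 116.1, 137.5 and 132.3 CPM in sdCAMs and at 1232, 1431 and 1060 CPM in MG (-3.22, SE 0.14, adjusted p by edgeR = 1.35e-07). Tmem119 lay at 121.7, 197.5 and 230.3 CPM against 1954, 1887 and 1981 CPM (-3.41, SE 0.18), and Sall1 at 2.015, 9.263 and 15.06 CPM against 113.3, 154.7 and 118.7 CPM (-4.02, SE 0.41). Upk1b was at 0 in every sdCAM library and at 11.06, 18.21 and 6.76 CPM in MG, at least 35.0-fold lower. The cell types overlapped for Bin1, at 149.8, 120.7 and 125.2 CPM against 136.6, 125.4 and 132.2 CPM.

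**Figure D2:**
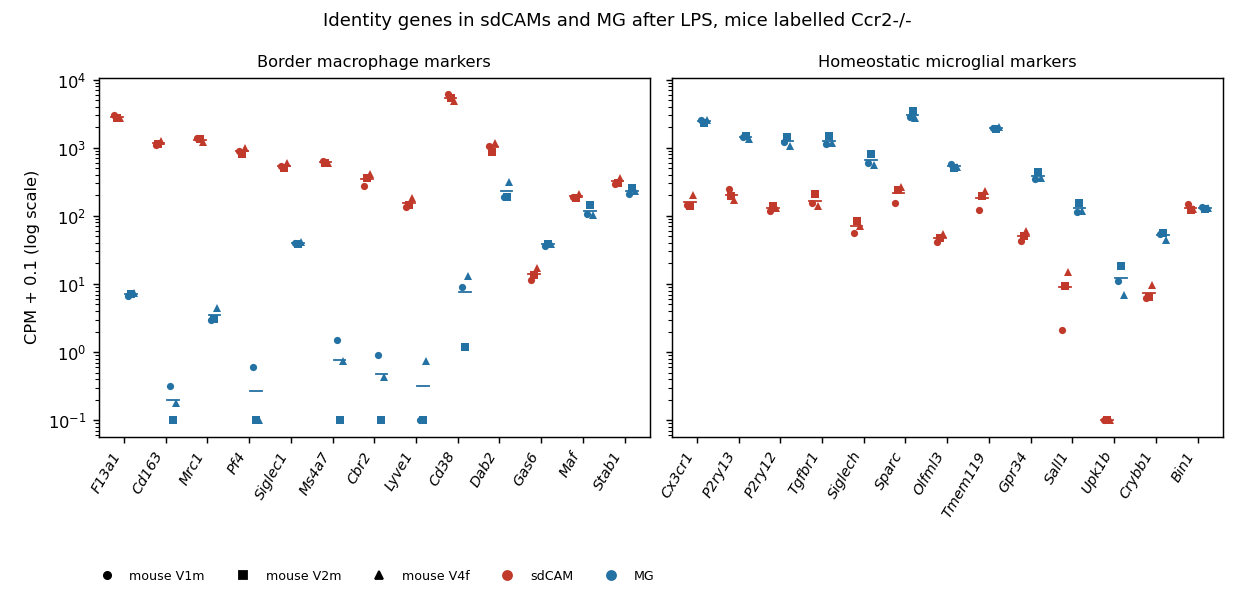
Levels of 13 border macrophage markers (left) and 13 homeostatic microglial markers (right) in sdCAMs (red) and MG (blue) after LPS, as CPM plus 0.1 on a log axis, with 1 symbol per mouse and a line at the mean. Border markers other than Gas6, Maf and Stab1 are higher in sdCAMs, and microglial markers other than Bin1 are lower in sdCAMs without reaching 0 except Upk1b.

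Of 24 identity transcription factors tested, 4 were higher and 7 lower in sdCAMs (median log2 fold change -0.57). The higher ones were Tfec, Nr1h3 (LXR alpha), Zeb2 and Spic, which in splenic red pulp macrophages controls iron recycling and which was at 6.424, 7.43 and 4.633 CPM in sdCAMs and at 0 in MG, at least 26.0-fold higher. Nr1h3, which controls cholesterol efflux, lay at 15.87, 18.63 and 40.43 CPM against 0.8007, 0.4945 and 0.3258 CPM (5.41, SE 0.55). The lower ones were Sall1, Sall3, Mef2c, Mef2a, Runx1, Hhex and Bhlhe41, of which Mef2c lay at 79.73, 92.01 and 67.88 CPM against 294.3, 350 and 284 CPM (-1.92, SE 0.13). The pan-macrophage factor Spi1 (PU.1) lay at 652.1, 719.9 and 606.4 CPM against 477, 433.9 and 476.3 CPM, with a log2 fold change of 0.55, and Cebpb at 653.8, 570 and 643.6 CPM against 587.8, 542.5 and 592.8 CPM, with overlapping values.

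Of 14 genes of TGF-beta signalling, 5 were lower in sdCAMs and none higher (median -0.49). Both subunits of the receptor were among them, with Tgfbr1 at 154.5, 210.4 and 138.7 CPM against 1115, 1482 and 1154 CPM (-2.87, SE 0.12) and Tgfbr2 at 143.1, 165.6 and 132.9 CPM against 432.9, 453.4 and 434.4 CPM (-1.54, SE 0.12). The others were the feedback inhibitors Smad7, Ski and Skil, of which Smad7 lay at 5.416, 6.005 and 8.803 CPM against 55.75, 68.9 and 57.75 CPM (-3.15, SE 0.25). The ligand Tgfb1 and its anchor Nrros overlapped between the cell types, with log2 fold changes of -0.12 and 0.09.

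Acute phase and antimicrobial genes separated the cell types after LPS, with 12 of 14 genes tested higher in sdCAMs and none lower (median log2 fold change 5.27). Saa3, a serum amyloid A gene of macrophages, lay at 58930, 67800 and 57980 CPM in sdCAMs and at 1198, 506.5 and 1102 CPM in MG (log2 fold change 6.17, SE 0.28, adjusted p by edgeR = 2.2e-07). Lcn2, lipocalin 2, which withholds iron from bacteria by binding their siderophores, lay at 6067, 6256 and 6592 CPM against 81.81, 43.76 and 88.37 CPM (6.57, SE 0.22). MG of V2m were lowest for both genes, and every sdCAM library lay above every MG library. Every sdCAM library also lay above every MG library for the ferroxidase ceruloplasmin (Cp), at 4174, 3863 and 3460 CPM against 70.46, 40.05 and 105.6 CPM (5.87, SE 0.28), for haptoglobin (Hp), at 134.3, 329.7 and 171.7 CPM against 5.386, 3.626 and 4.643 CPM (5.46, SE 0.32), and for Saa1, at 37.16, 52.42 and 54.44 CPM against 0.5823, 0.8241 and 0.5702 CPM. Members of the Saa family are near-identical and may share reads, so that values of single members are uncertain. Serpina3g (3.905, 2.138 and 4.054 CPM against 1.529, 0 and 0.3258 CPM) and Wfdc21 did not pass the test.

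CXC chemokines, which recruit neutrophils or lymphocytes, were higher in sdCAMs in 5 of 8 genes tested and lower in none (median 4.65). The neutrophil attractant Cxcl2 lay at 410.1, 424.6 and 353.2 CPM in sdCAMs and at 19.65, 18.46 and 10.18 CPM in MG (log2 fold change 4.70, SE 0.18, adjusted p by edgeR = 9.7e-08), and Cxcl1 at 38.92, 32.47 and 36.02 CPM against 0, 0.1648 and 0 CPM. Cxcl3 was at 0 in every MG library and at least 73.0-fold higher in sdCAMs. Cxcl9, which attracts T cells, lay at 366.5, 198 and 192.6 CPM against 11.06, 9.313 and 4.398 CPM (4.99, SE 0.22), and Cxcl13, which attracts B cells, at 381.4, 669.7 and 612.5 CPM against 37.19, 6.923 and 34.62 CPM (4.6, SE 0.51). Cxcl10, Cxcl14 and Cxcl16 did not pass. Cxcl10 lay at 142.7, 117.8 and 178.6 CPM against 127.2, 80.02 and 43.58 CPM (0.94), and without V1m its log2 fold change was 1.34 and it passed.

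Of the CC chemokines, 12 were tested, of which 7 were higher and 1 was lower in sdCAMs (median 1.69). The T cell chemokine Ccl5 lay at 4480, 4873 and 4599 CPM against 263.4, 185.2 and 408.8 CPM (4.14, SE 0.21), the monocyte chemokine Ccl7 at 521.6, 225.2 and 459.6 CPM against 42.14, 19.86 and 33.88 CPM (3.67, SE 0.14), and its relative Ccl8 at 109.8, 156.8 and 103 CPM against 0.2911, 0 and 0.08145 CPM. Ccl24, Ccl9, Ccl6 and Ccl17 were also higher, of which Ccl17 did not pass without V2m or V4f (adjusted p by edgeR = 0.209 and 0.193). Ccl12, a CCR2 ligand, went the other way, at 723.9, 573.5 and 582.8 CPM in sdCAMs and at 2428, 1696 and 2086 CPM in MG (-1.68, SE 0.11, adjusted p by edgeR = 2.31e-06). Its relative Ccl2 lay at 148.9, 88.55 and 162.2 CPM against 216.5, 169.7 and 201.2 CPM, and Ccl3 and Ccl4 also had negative log2 fold changes of -0.61 and -0.57 that did not pass the limit.

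Cytokine genes went in both directions, with 9 of 23 genes tested higher and 7 lower (median -0.12). Csf3, which encodes the granulocyte growth factor G-CSF, lay at 108.8, 108.5 and 102.3 CPM in sdCAMs and at 0 in every MG library, at least 450-fold higher. Il1rn, the antagonist of the IL-1 receptor, lay at 2826, 2752 and 2741 CPM against 219.7, 191.7 and 316.4 CPM (3.59, SE 0.16), and Ebi3, a subunit of IL-27 and IL-35, at 217.5, 273.5 and 260.7 CPM against 19.43, 12.11 and 20.61 CPM (3.91, SE 0.21). The other 6 higher genes were Igf1, Il18bp, Tnfsf10, Tnfsf9, Il27 and Il10, and the anti-inflammatory Il10 was low in all, at 4.031, 10.08 and 4.633 CPM against 0.7279, 0.08241 and 0 CPM. Without V2m, whose sdCAMs were highest, Il10 did not pass (adjusted p by edgeR = 0.132), and Il27 did not without V2m or V4f (0.0664 and 0.0592).

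Among the lower cytokine genes were classical mediators of the LPS response. Il1a lay at 75.32, 88.25 and 74.6 CPM in sdCAMs and at 263.3, 197.5 and 167.5 CPM in MG (-1.33, SE 0.17, adjusted p by edgeR = 0.000176). In untreated mice, described below, Il1a was lower in sdCAMs too, at means of 10.61 CPM against 139.5 CPM. Tnf lay at 51.77, 61.99 and 53.17 CPM against 150.4, 116 and 88.7 CPM (-1.02, SE 0.18), a difference that was -0.78 and under the limit without V1m, whose MG library was highest. Il12b was at 35.02, 0 and 0 CPM against 75.12, 37.42 and 25.41 CPM, so that sdCAMs of V1m alone held it, and it did not pass without V2m (adjusted p by edgeR = 0.0973) or without the replicate block (0.265). Pdgfb, Il16, Tnfsf13b (BAFF) and Osm were the other 4, and Osm fell under the limit without V2m, at -0.94. The cell types overlapped for Il1b, at 101.6, 108.6 and 92.44 CPM against 172.3, 104.7 and 93.99 CPM (-0.20, SE 0.18), and for Il6, at 26.2, 20.36 and 27.11 CPM against 26.79, 15.16 and 28.43 CPM (0.15, SE 0.23).

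Receptors for chemoattractants numbered 4 higher and 1 lower of 14 tested (median 0.06). Ccr1 lay at 460.2, 399.5 and 395.7 CPM against 5.75, 5.769 and 5.702 CPM (6.22, SE 0.16), and the formyl peptide receptors Fpr1, at 2844, 3248 and 2816 CPM against 124.5, 64.94 and 144.7 CPM (4.84, SE 0.25), and Fpr2, at 560.4, 626.5 and 463.8 CPM against 6.769, 5.192 and 7.901 CPM (6.41, SE 0.22), were higher as well. Ccr3, at 2.952 to 3.591 CPM in sdCAMs, did not pass without V2m or V4f (adjusted p by edgeR = 0.133 and 0.109). The lower gene was Cx3cr1, and the complement receptor C5ar1 overlapped.

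**Figure D3:**
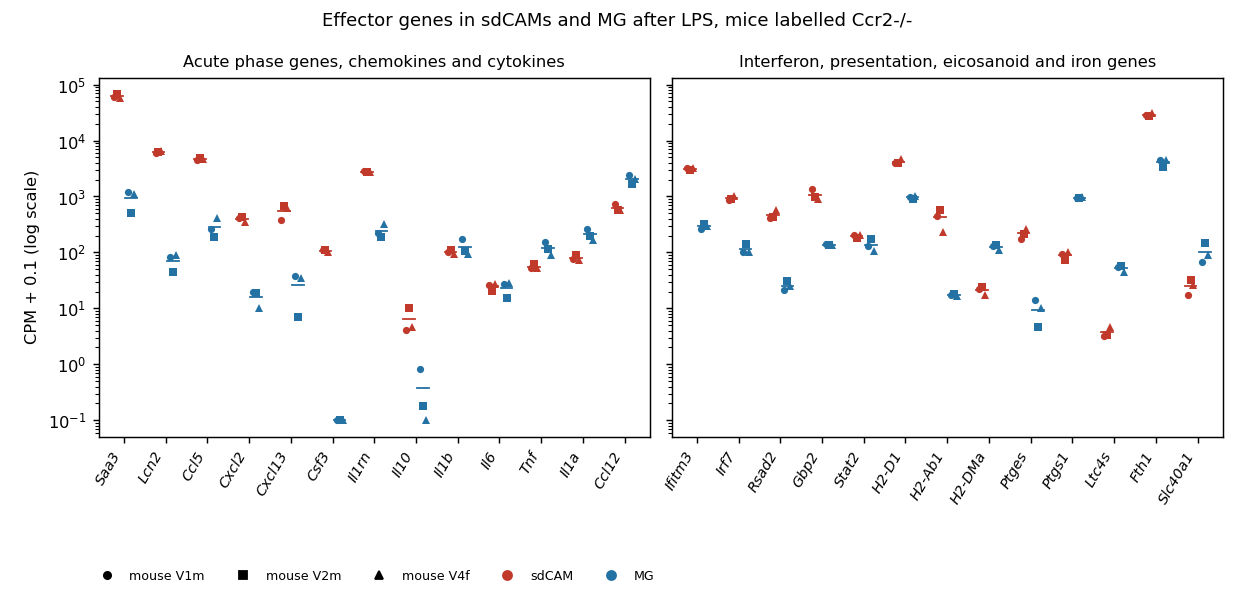
Levels of 13 acute phase, chemokine and cytokine genes (left) and 13 genes of interferon response, antigen presentation, eicosanoids and iron (right) in sdCAMs (red) and MG (blue) after LPS, as CPM plus 0.1 on a log axis, with 1 symbol per mouse and a line at the mean. Saa3, Lcn2, Ccl5, Cxcl2, Cxcl13, Csf3 and Il1rn are far higher in sdCAMs, Il1b and Il6 overlap, and Tnf, Il1a and Ccl12 are lower.

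Genes that sense LPS went in both directions. Of 28 genes of Toll-like receptors and LPS sensing, 5 were higher and 4 were lower (median 0.05), beside 10.9% higher and 9.71% lower of all genes tested. Tlr4 lay at 168, 131 and 153 CPM in sdCAMs and at 104, 134.7 and 96.03 CPM in MG (log2 fold change 0.48, SE 0.17, adjusted p by edgeR = 0.0544) and its coreceptor Cd14 at 2187, 2586 and 2030 CPM against 2343, 1381 and 1816 CPM, with overlap in both. Ly96, which encodes MD-2, was higher, at 86.41, 79.8 and 61.86 CPM against 23.29, 23.32 and 25.33 CPM (1.69, SE 0.19), as was Irak3, a kinase-like inhibitor of the same pathway, at 375.1, 447.1 and 321.6 CPM against 32.61, 20.85 and 36.57 CPM (3.73, SE 0.23). Tlr8 lay at 178.9, 125.2 and 111.4 CPM against 0.3639, 1.154 and 1.14 CPM (7.31, SE 0.36), and Tlr5 and Lbp were the other higher genes.

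Ly86, the partner of the LPS receptor homologue RP105, was lower, at 275.1, 320.5 and 375.7 CPM against 1248, 1033 and 1057 CPM (-1.75, SE 0.15). Tlr3 and Tlr12 were lower too, as was Cd180 (RP105), at a log2 fold change of -1.01 that became -0.73 without V2m and did not pass. Tlr2, which binds bacterial lipoproteins, lay at 1016, 1100 and 819.6 CPM against 2335, 1351 and 2142 CPM (-0.92), and passed without V2m, at -1.25.

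Of 22 genes of NF-kappaB and its feedback regulators, 9 were higher and none lower (median 0.84). Ikbke, a kinase that activates interferon regulatory factors, lay at 351.3, 551.2 and 468 CPM against 20.16, 9.642 and 22.64 CPM (4.78, SE 0.31), and the phosphatase Dusp1, which ends MAP kinase signalling, at 1163, 1483 and 1236 CPM against 251.8, 309.3 and 256.6 CPM (2.29, SE 0.11). Of the restrainers of NF-kappaB, Tnip1 was higher at 133, 152.1 and 140 CPM against 27, 22.33 and 26.47 CPM, and Tnfaip3 (A20) at 578, 709.1 and 596.1 CPM against 300.6, 226.1 and 266.3 CPM. The subunits of the noncanonical pathway, Nfkb2 and Relb, were higher with log2 fold changes of 1.61 and 1.76, whereas Nfkb1 and Rela of the canonical pathway overlapped, at 0.20 and 0.08. Nfkbib, Tnip3 and Socs1 completed the higher genes, and Socs1 did not pass without V4f (adjusted p by edgeR = 0.0899).

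Type I interferon-stimulated genes were higher in sdCAMs in 22 of 30 genes tested and lower in none (median log2 fold change 2.19). Ifitm3, which blocks entry of viruses, lay at 3184, 2979 and 3264 CPM in sdCAMs and at 264.9, 323.8 and 301.5 CPM in MG (3.45, SE 0.12, adjusted p by edgeR = 5.6e-08). The antiviral enzyme Rsad2 (viperin) lay at 419.9, 429.5 and 564.8 CPM against 21.04, 30.49 and 24.6 CPM (4.26, SE 0.17), Irf7, the transcription factor that amplifies interferon, at 860.3, 900.2 and 1038 CPM against 103.3, 139.4 and 103 CPM (3.07, SE 0.15), and Ifit3 at 146.4, 141.6 and 300.2 CPM against 17.69, 31.24 and 19.39 CPM (3.10, SE 0.29). For Ifit1, Ifit2, Ifit3 and Usp18, sdCAMs of V4f were highest, and without V4f Usp18 fell under the limit, at 0.97. The factors that carry the interferon signal to DNA were closer together. Stat2 lay at 203.7, 177.3 and 206.5 CPM against 128.3, 172 and 104.3 CPM and Irf9 at 192.3, 203 and 169.5 CPM against 179.4, 192.4 and 184.9 CPM, with log2 fold changes of 0.61 and 0.06. Rigi, Xaf1, Ifih1, Mx2 and Trim30a did not pass either. Members of the Oas, Ifit and Mx families resemble each other and may share reads.

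Guanylate-binding proteins and immunity GTPases, which attack vacuoles of intracellular microbes and answer mostly to interferon gamma, were higher in 9 of 14 genes tested and lower in none (median 2.71). Gbp2 lay at 1337, 999.1 and 910.6 CPM against 142.7, 133.8 and 137.6 CPM (2.99, SE 0.14) and Iigp1 at 702.1, 394 and 294.3 CPM against 14.19, 20.11 and 2.281 CPM (5.50, SE 0.41). In sdCAMs, V1m was highest for all 9 higher genes, which were Gbp2, Gbp4, Gbp5, Gbp6, Gbp8, Gbp9, Iigp1, Tgtp1 and Tgtp2. Igtp, Gbp3, Gbp7, Irgm1 and Irgm2 had log2 fold changes of 0.04 to 0.90. Near-identical members such as Tgtp1 and Tgtp2 may share reads.

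Promoters of 6 genes are shown from RefSeq (build GRCm38.p6), from 250 bases before to 50 after the start, to set the sequence beside genes that were far apart between the cell types. Of the DEGs, 955 of 1235 higher and 866 of 1096 lower genes, and 7102 of 8962 other genes tested, matched a promoter by symbol. Capitals mark matches, on either strand, to any of 7 motifs: interferon response GAAANNGAA, ETS-IRF composite GGAANNGAA, PU.1 GAGGAAGT, NF-kappaB GGGANTTTC, AP-1 TGANTCA, MAF TGCTGAC and E-box CACGTG. No marked matches overlap each other, and a match is only the presence of these letters. The promoters are Saa3 at chr7:46715627-46715926 (minus strand), Cxcl2 at chr5:90903649-90903948 (plus strand), Rsad2 at chr12:26456403-26456702 (minus strand), Ifit3 at chr19:34583279-34583578 (plus strand) and Gbp2 at chr3:142620413-142620712 (plus strand), all higher in sdCAMs, and P2ry12 at chr3:59262936-59263235 (minus strand), which was lower.
Saa3: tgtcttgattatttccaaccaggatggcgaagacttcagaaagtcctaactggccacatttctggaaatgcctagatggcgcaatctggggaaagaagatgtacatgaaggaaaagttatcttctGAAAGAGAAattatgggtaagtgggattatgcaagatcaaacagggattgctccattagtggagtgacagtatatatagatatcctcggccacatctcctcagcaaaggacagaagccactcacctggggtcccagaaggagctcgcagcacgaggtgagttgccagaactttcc
Cxcl2: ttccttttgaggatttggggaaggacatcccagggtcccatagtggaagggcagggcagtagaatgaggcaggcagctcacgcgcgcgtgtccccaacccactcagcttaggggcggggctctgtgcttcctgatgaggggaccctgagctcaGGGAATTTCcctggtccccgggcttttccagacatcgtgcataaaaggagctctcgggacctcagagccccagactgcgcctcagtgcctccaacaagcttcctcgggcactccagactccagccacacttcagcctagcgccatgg
Rsad2: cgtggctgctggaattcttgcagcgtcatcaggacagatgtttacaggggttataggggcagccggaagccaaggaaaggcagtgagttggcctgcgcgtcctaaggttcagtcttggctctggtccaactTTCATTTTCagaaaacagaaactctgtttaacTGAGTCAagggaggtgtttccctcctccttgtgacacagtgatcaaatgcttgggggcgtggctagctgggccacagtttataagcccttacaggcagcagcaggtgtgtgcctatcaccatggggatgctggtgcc
Ifit3: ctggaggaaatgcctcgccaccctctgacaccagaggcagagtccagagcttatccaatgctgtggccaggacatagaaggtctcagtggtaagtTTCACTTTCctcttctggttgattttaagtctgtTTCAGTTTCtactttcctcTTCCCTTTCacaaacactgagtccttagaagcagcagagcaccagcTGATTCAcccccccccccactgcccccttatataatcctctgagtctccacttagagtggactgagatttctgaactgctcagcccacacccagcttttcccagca
Gbp2: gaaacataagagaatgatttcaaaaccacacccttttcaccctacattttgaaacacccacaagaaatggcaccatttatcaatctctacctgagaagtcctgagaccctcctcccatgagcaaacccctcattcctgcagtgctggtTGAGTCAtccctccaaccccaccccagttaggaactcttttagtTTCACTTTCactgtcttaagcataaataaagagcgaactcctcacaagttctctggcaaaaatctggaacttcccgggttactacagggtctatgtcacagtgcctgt
P2ry12: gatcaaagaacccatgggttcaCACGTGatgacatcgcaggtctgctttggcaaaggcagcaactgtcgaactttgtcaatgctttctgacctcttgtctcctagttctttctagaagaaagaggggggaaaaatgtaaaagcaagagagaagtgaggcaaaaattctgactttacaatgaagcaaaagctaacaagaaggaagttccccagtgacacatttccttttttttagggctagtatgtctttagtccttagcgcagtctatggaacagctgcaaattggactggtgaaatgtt

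Cxcl2 held 1 NF-kappaB match, Saa3 held 1 interferon response match and Gbp2 and Rsad2 each held 1 interferon response and 1 AP-1 match. Ifit3 held 3 interferon response matches and 1 AP-1 match, and P2ry12 only an E-box. Over whole groups, the interferon response motif lay in 11.3% of promoters of genes higher in sdCAMs, 4.85% of lower ones, 7.38% of other genes tested and 8.56% of all 32851 promoters of the table. It lay in 13 of 22 interferon-stimulated genes, in 9 of 9 guanylate-binding protein genes and in 0 of 16 microglial markers with a promoter. The AP-1 motif lay in 9.11, 4.97, 4.32 and 7.81% of the same 4 groups, the NF-kappaB motif in 1.57, 1.39, 0.972 and 1.11%, the ETS-IRF motif in 8.17, 5.08, 7.52 and 8.24%, and the PU.1 motif in 4.08, 4.27, 3.24 and 3.2%. The E-box lay in 9.53, 11.4, 10.5 and 7.15% and the MAF motif in 3.35, 5.2, 3.34 and 4.67%. The NF-kappaB motif lay in 4 of 7 CXC chemokine promoters. The ETS-IRF and interferon response motifs differ in 1 letter and can both lie in a promoter, and these shares are descriptions without a test.

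Antigen presentation divided by pathway. Of 20 genes of MHC class I presentation, 16 were higher in sdCAMs and none was lower (median log2 fold change 1.53). The heavy chains H2-D1, at 4005, 3906 and 4631 CPM against 960.2, 915.9 and 1011 CPM (2.16, SE 0.10), and H2-K1, at 2441, 2514 and 2541 CPM against 778.5, 661.3 and 765.6 CPM (1.81, SE 0.11), were higher, as were the peptide transporter genes Tap1 and Tap2, the loader Tapbp and the immunoproteasome subunits Psmb8, Psmb9 and Psmb10, the last of which was at 0.95 without V4f, under the limit. The light chain B2m lay at 9299, 8141 and 9018 CPM against 4872, 5425 and 4676 CPM, without overlap and at a log2 fold change of 0.86, under the limit. H2 genes of the Q region resemble each other and may share reads.

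Of 9 genes of MHC class II presentation, 4 were higher and 4 were lower (median -1.67). The higher ones were the classical chains and the invariant chain, with H2-Ab1 at 451.6, 575.1 and 236 CPM against 16.89, 18.05 and 16.21 CPM (4.58, SE 0.22), H2-Aa at 211.2, 312.4 and 99.39 CPM against 3.785, 3.379 and 4.073 CPM (5.70, SE 0.32), H2-Eb1 (5.80, SE 0.30) and Cd74 at 2220, 2845 and 1730 CPM against 375.1, 319.1 and 509.7 CPM (2.54, SE 0.22). In sdCAMs, V4f was lowest for all 4. The lower ones, H2-DMa, H2-DMb1, H2-Oa and H2-Ob, were genes of nonclassical chains that load and edit peptides. H2-DMa lay at 22.04, 23.61 and 17.03 CPM against 130.2, 135.2 and 112 CPM (-2.56, SE 0.16). H2-DMb1 lay at 18.26, 19.85 and 16.91 CPM against 60.7, 60.33 and 58.97 CPM (-1.67, SE 0.19). H2-DMb2, another nonclassical chain, was not called. H2-Ob did not pass without V2m (adjusted p by edgeR = 0.0513). The summed dendritic cell markers given above, carried by Cd209a, were also higher in sdCAMs and were lowest there in V1m. The part of such cells in the class II genes was not tested.

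Of 11 costimulatory and checkpoint ligands, 3 were higher and 3 lower (median -0.47). Cd40, through which T cells activate macrophages, lay at 172.7, 152.1 and 150.9 CPM against 27.8, 12.69 and 11.57 CPM (3.33, SE 0.23), and Tnfrsf9 (4-1BB) at 375.4, 357.3 and 530.9 CPM against 4.003, 1.896 and 8.471 CPM (6.61, SE 0.27). The inhibitory receptors Havcr2 (TIM-3), at 29.6, 54.15 and 40.19 CPM against 359, 559.4 and 337.9 CPM (-3.30, SE 0.15), and Vsir (VISTA) were lower. Cd80 (higher, 1.18) and Icosl (lower, -1.04) were near the limit and fell under it without V2m, at 0.88, and without V4f, at -0.92. Cd86 lay at 517.2, 540.1 and 520 CPM against 763.5, 825.6 and 662 CPM (-0.47) and Cd274 (PD-L1) overlapped.

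Receptors for uptake differed in kind. Of 21 scavenger and efferocytosis receptors, 7 were higher and 9 lower (median -0.98). Timd4, a receptor for phosphatidylserine on resident macrophages, lay at 285.3, 336.9 and 220.7 CPM in sdCAMs and at 0 in every MG library, at least 1190-fold higher. Axl lay at 427.6, 497.1 and 457.5 CPM against 21.33, 34.78 and 31.03 CPM (4.05, SE 0.15), whereas its relative Mertk lay at 282.8, 297.4 and 329 CPM against 580.2, 635.7 and 623.8 CPM, at a log2 fold change of -0.98 that passed the limit without V4f, at -1.05. Msr1, the class A scavenger receptor, lay at 4286, 3709 and 3904 CPM against 1540, 1032 and 1827 CPM (1.51, SE 0.14), and Marco of the same class at 22.8, 26.36 and 10.54 CPM against 110.2, 47.72 and 224.6 CPM (-2.41, SE 0.53). Trem2, a lipid receptor of MG, lay at 68.52, 97.41 and 78.88 CPM against 421.3, 480.1 and 352.8 CPM (-2.32, SE 0.14). Cd163, Mrc1, Colec12 and Cd36 were the other higher genes, and Itgb5, Itgav, Pros1, Scarb2, Gas6, Lrp1 and Mfge8 the other lower ones. Lrp1 was at -0.82 without V2m, under the limit.

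Of 18 C-type lectin receptors, 14 were higher and 1 was lower, with a median of 6.94, or 5.79 with 5 genes set at their bound. Clec4e (Mincle), which binds mycobacterial and damaged-cell glycolipids, lay at 1686, 2454 and 1643 CPM in sdCAMs and at 6.187, 2.472 and 3.339 CPM in MG (8.94, SE 0.33, adjusted p by edgeR = 6.01e-08), and its partner Clec4d at 455.7, 518.8 and 429.1 CPM against 3.421, 1.154 and 3.665 CPM (7.46, SE 0.32). Cd209a, Cd209b and Cd209f of the DC-SIGN family were at 0 in every MG library and were at least 427-fold, at least 49.1-fold and at least 62.4-fold higher in sdCAMs. The lower gene was Clec7a (dectin-1), the receptor for fungal glucans, at 5.542, 3.563 and 2.664 CPM against 25.18, 12.03 and 27.04 CPM (-2.37, SE 0.41). Clec5a and Cd302 overlapped.

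Of 17 complement genes, 7 were higher and 2 lower (median 0.15). Those of the alternative pathway were higher, with properdin (Cfp) at 338.6, 252.3 and 351.7 CPM against 2.111, 1.648 and 0.9774 CPM (7.66, SE 0.25), C3 at 389, 202.2 and 262.9 CPM against 6.696, 5.357 and 15.15 CPM (5.08, SE 0.31) and Cfb, at 0 in every MG library, at least 135-fold higher. C2, C4b and C1ra were higher, as was Cd55, which protects cells from complement, at 517.7, 511.7 and 439.4 CPM against 0 in every MG library, at least 2070-fold higher. C1qa, a chain of the C1q that MG make in the brain, was lower at 2527, 2830 and 2615 CPM against 6154, 5762 and 5635 CPM (-1.10, SE 0.10), while C1qb and C1qc had log2 fold changes of -0.42 and -0.60. The other lower gene was C5ar2. Among 6 Fc receptor genes, Fcer1g, Fcgr2b and Fcgr4 were higher (1.81, 1.78 and 1.39) and none was lower, and Fcgr3 lay at 1989, 1784 and 2101 CPM against 3464, 3551 and 2995 CPM (-0.73).

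Of 23 integrins and adhesion molecules, 7 were higher and 9 lower (median -0.59). Vcam1, the ligand of alpha4 integrins, lay at 1112, 1008 and 1086 CPM against 166.6, 111 and 213.6 CPM (2.80, SE 0.17), and Cd44, Itgal, Itga4, Itga9 and Jaml were also higher. The lower genes included Selplg (PSGL-1), at 104.4, 139 and 149.9 CPM against 1488, 1643 and 1271 CPM (-3.45, SE 0.16), F11r, Cd9, Cd81, Itgb5, Itgb3, Itgav and Itga6. Pecam1 was lower by the test, and its sdCAM values were 0, 0.2036 and 11.24 CPM; it did not pass without V2m (adjusted p by edgeR = 0.176) or without the replicate block (0.136). Itgam, which encodes CD11b, lay at 1072, 940.4 and 1021 CPM against 530.5, 536.4 and 638.9 CPM (0.88).

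Of 25 genes of matrix, coagulation and proteolysis, 14 were higher and 6 lower (median 2.71). Matrix metalloproteinases were prominent among the higher ones, with Mmp13 at 358.7, 233.7 and 195.6 CPM against 0.1456, 0.4945 and 0 CPM, Mmp14, the membrane-bound activator of other members, at 1344, 1558 and 1147 CPM against 226.5, 185.6 and 222.7 CPM (2.71, SE 0.15), Mmp19 at 139.9, 117 and 254.7 CPM against 8.298, 10.88 and 11.57 CPM (4.03, SE 0.22) and Mmp9, at 0 in every MG library, at least 222-fold higher. Mmp3 and Mmp8 were higher too. Their inhibitor Timp1 lay at 89.68, 75.12 and 75.99 CPM against 0.6551, 0.4121 and 1.466 CPM (6.63, SE 0.35). Thbs1 (thrombospondin 1), Adam8, Ecm1, Serpinb2, Timp3, Vcan and F13a1 were the other higher genes. Fibronectin (Fn1), at 8.817, 7.634 and 5.908 CPM against 36.61, 44.83 and 34.86 CPM (-2.35, SE 0.26), osteopontin (Spp1), at 174.4, 241.6 and 307.2 CPM against 735.8, 664.8 and 509.1 CPM (-1.38, SE 0.22), Tgm2, Adamts1 and Mmp2 were among the lower genes. In a fit over 18 libraries, Adamts1, Mmp2 and Vcan did not pass (adjusted p by edgeR = 0.0623, 0.0608 and 0.189). Mmp2 did not pass without V1m or V4f (adjusted p by edgeR = 0.0689 and 0.0551), Vcan not without V1m or V2m (0.306 and 0.123) and Timp3 not without V4f (0.0983).

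Metabolic genes of LPS-activated macrophages were higher in 9 of 20 genes of itaconate, nitric oxide, arginine and glycolysis, and lower in none (median 0.94). Acod1, which makes itaconate, lay at 422.6, 681.5 and 381.8 CPM against 128.3, 54.15 and 76.48 CPM (2.59, SE 0.31), and Slc7a2, which imports arginine, at 1002, 627.7 and 578.1 CPM against 1.019, 0.5769 and 1.466 CPM (9.51, SE 0.26, adjusted p by edgeR = 1.69e-08). Of the enzymes that use arginine, Nos2 and Arg1 were low in both cell types, and neither passed. Nos2 lay at 1.26, 1.018 and 2.548 CPM against 0.2911, 0.4945 and 0 CPM. Arg1 lay at 4.157, 2.646 and 4.402 CPM against 2.766, 3.791 and 7.412 CPM. Hif1a, which turns macrophages to glycolysis, lay at 582.7, 653 and 519.1 CPM against 212.8, 239.2 and 225.8 CPM (1.41, SE 0.12), and the superoxide dismutase Sod2 at 2479, 2600 and 2338 CPM against 262, 183.1 and 284.4 CPM (3.41, SE 0.16). Hk3, Pkm, Gch1, Slc2a6 and Arg2 were also higher, of which Pkm was at 0.91 without V4f and Slc2a6 at 0.99 without V1m and 0.84 without V2m, under the limit, while Ldha and Pfkfb3 had log2 fold changes of -0.18 and -0.13.

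Enzymes of eicosanoid synthesis went in both directions. Of 12 genes tested, 2 were higher and 6 lower (median -0.92). The inducible enzymes of prostaglandin E2 synthesis were the higher ones, with Ptges at 177.2, 217.1 and 266.3 CPM against 13.76, 4.615 and 9.856 CPM (4.65, SE 0.31) and Ptgs2 (cyclooxygenase 2) at 24.69, 6.616 and 12.86 CPM against 0.7279, 0.2472 and 1.385 CPM (4.30, SE 0.60). The constitutive Ptgs1 lay at 95.47, 74.61 and 102.7 CPM against 922.4, 925.8 and 958.9 CPM (-3.33, SE 0.14, adjusted p by edgeR = 1.21e-07). Also lower were Ltc4s and Alox5 of leukotriene, Hpgds of prostaglandin D2 and Tbxas1 of thromboxane synthesis, and Hpgd, which degrades prostaglandins. Ltc4s lay at 3.149, 3.257 and 4.633 CPM against 54.01, 57.85 and 44.31 CPM (-3.78, SE 0.28). The leukotriene genes Alox5ap and Lta4h were not called, nor were Pla2g4a and Ch25h.

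Iron and heme genes were higher in 10 of 15 and lower in 2 (median 1.59). Ferritin heavy chain (Fth1) lay at 29180, 27630 and 30620 CPM against 4487, 3353 and 4441 CPM (2.88, SE 0.10, adjusted p by edgeR = 5.4e-08), and heme oxygenase 1 (Hmox1), which frees iron from heme, at 228, 455.6 and 287 CPM against 58.88, 65.93 and 79.74 CPM (2.24, SE 0.19). Ftl1, Slc11a1 (NRAMP1), Slc11a2, Blvra, Blvrb, Cp, Spic and Steap4 were also higher, and Slc11a2 was at 0.96 without V2m, under the limit. Steap4 lay at 843.2, 729.1 and 798.3 CPM against 0.07279, 0.08241 and 0.3258 CPM. The iron exporter ferroportin (Slc40a1), at 17.51, 31.86 and 26.41 CPM against 65.94, 149.7 and 88.46 CPM (-1.92, SE 0.18), and the transferrin receptor Tfrc, at 29.1, 51.3 and 34.17 CPM against 162.5, 82.17 and 122.5 CPM (-1.62, SE 0.29), were lower.

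Of 19 genes of lipid handling, 12 were higher and 4 lower (median 1.65). The lipid droplet coat Plin2 lay at 1345, 1392 and 1416 CPM against 128, 108.5 and 135.9 CPM (3.53, SE 0.13). Genes of cholesterol synthesis and its regulator, Sqle, Hmgcs1 and Srebf2, were higher with log2 fold changes of 1.34 to 3.67. The cholesterol exporters Abcg1, at 13.48, 7.838 and 15.06 CPM against 105, 149.8 and 84.46 CPM (-3.17, SE 0.31), and Abca1 (-1.25, SE 0.17) were lower, as were the ubiquitin ligase Mylip and the lipase Lpl. Fabp4, Fabp5, Npc2, Gpnmb, Nr1h3 and Apoe were also higher, and Gpnmb did not pass without V4f (adjusted p by edgeR = 0.0519).

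Genes of stress and growth were called in both directions, beside 10.9% higher and 9.71% lower of all genes tested. Of 10 glucocorticoid-responsive genes, 1 was higher (Hif3a) and 2 were lower (Sgk1 and Ddit4), and the receptor Nr3c1 overlapped at 200.6, 191.8 and 153.2 CPM against 187.5, 185.3 and 184.7 CPM. Of 22 immediate early and heat shock genes, which rise when cells are dissociated, 2 were higher and 1 was lower, and Fos lay at 171.7, 176.3 and 180.7 CPM against 25.4, 16.07 and 20.12 CPM (3.16, SE 0.18) while Jun, Egr1 and Hspa1a overlapped. Of 12 cell cycle genes, 1 was higher (Mki67) and 1 lower (Mcm7), Mki67 did not pass whichever mouse was left out (adjusted p by edgeR = 0.0847 to 0.098) and Mcm7 did not without V1m (0.0512).

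**Figure D4:**
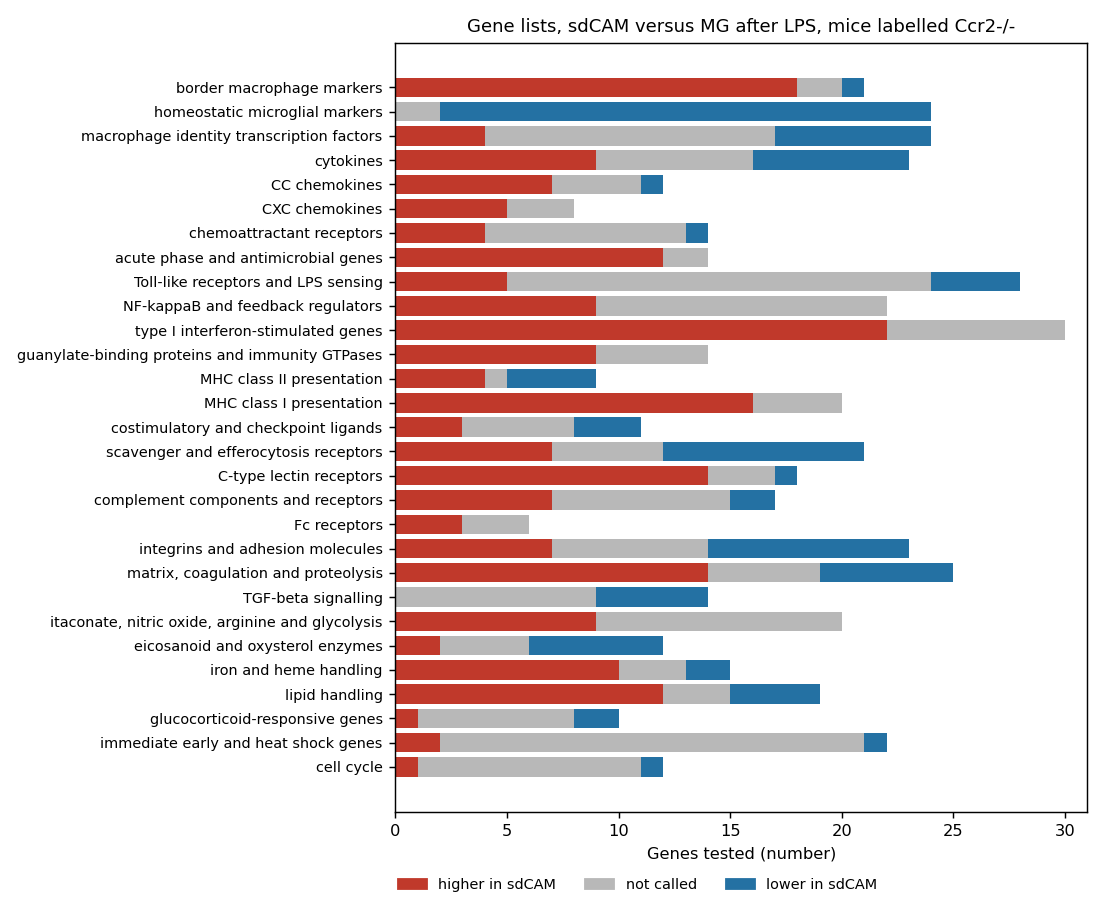
Number of genes tested in each of 29 gene lists (x axis) that were higher in sdCAMs (red), not called (grey) or lower in sdCAMs (blue) after LPS. Acute phase, interferon, MHC class I, guanylate-binding protein, NF-kappaB and CXC chemokine lists hold higher but no lower genes, and microglial and TGF-beta lists hold lower but no higher genes.

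To learn which of these differences stood without LPS, the same contrast was tested in 3 untreated mice with PBS, also labelled Ccr2-/-. There, 1068 (9.44%) of 11316 genes were higher in sdCAMs and 901 (7.96%) were lower. Of 10669 genes tested in both, 548 genes were higher in sdCAMs in both conditions, which is 51.9% of those higher after LPS and 56.7% of those higher without it, and 478 were lower in both, 44.5 and 56.4%. The contrasts came from different mice, and levels without LPS are given below in the order of mice 1m, 3m and 5f.

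Whether the difference between the cell types itself differed with LPS was tested as an interaction over the 12 libraries, which include all 6 of the comparison after LPS. Of 12305 genes, 413 (3.36%) had a difference shifted towards sdCAMs after LPS and 622 (5.05%) shifted towards MG. Dab2, an endocytic adaptor of resident macrophages, lay at 3842, 3626 and 3477 CPM in untreated sdCAMs and 31.34, 18.4 and 16.46 CPM in untreated MG, and at 1046, 870 and 1163 CPM and 186.8, 189.7 and 309.8 CPM after LPS (interaction -5.25, SE 0.23, adjusted p by edgeR = 9.95e-07). It was higher in sdCAMs in both conditions, with a smaller difference after LPS. The border markers Siglec1 (interaction -4.74), Cd36 (-4.94), Tgfbi (-3.44) and Stab1 (-3.09) and the scavenger receptor Msr1 (-5.88) were likewise closer together after LPS. Msr1 had means of 508.2 CPM in sdCAMs and 3.319 CPM in MG of untreated mice.

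Ctsc, the lysosomal cathepsin C, lay at 7850, 7184 and 7357 CPM in sdCAMs and 1325, 1451 and 1270 CPM in MG without LPS, and at 2141, 1661 and 2131 CPM and 3837, 2842 and 4189 CPM with it (interaction -3.36, SE 0.13). Its difference after LPS, -0.82, was under the limit, while the order of the cell types had turned. Gatm, which makes the precursor of creatine, lay at 364.9, 394.5 and 385.6 CPM against 252.8, 223.9 and 239.3 CPM without LPS and at 75.07, 64.94 and 65.33 CPM against 377.9, 370.2 and 376.5 CPM with it (-3.16, SE 0.16). Ms4a6c, a membrane protein, was also shifted towards MG, by an interaction of -3.32, with sdCAMs above MG in both conditions.

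In the other direction, Cstb, the cathepsin inhibitor cystatin B, lay at 137.2, 145.2 and 120.9 CPM in sdCAMs and 60.52, 46.66 and 44.72 CPM in MG without LPS, and at 842.4, 876.9 and 890 CPM and 57.65, 52.25 and 59.3 CPM after LPS (interaction 2.5, SE 0.17). Abhd17b, which removes palmitate from proteins, lay at 32.19 to 38.81 CPM against 37.21 to 44.91 CPM without LPS and at 283.5, 357.5 and 327.8 CPM against 41.78, 38.41 and 44.39 CPM with it (3.13, SE 0.20). The MG means of Abhd17b were 40.98 CPM without and 41.53 CPM with LPS. Hif1a (2.2), the G-CSF receptor Csf3r (2.29) and Itgam (2.33) were shifted towards sdCAMs as well, and their untreated sdCAM levels were below those of MG.

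The order of the cell types was called in opposite directions for 39 genes, all of which passed the interaction test. Of these, 16 were lower in sdCAMs without LPS and higher after it, among them Dock10, an activator of small GTPases (88.36, 82.54 and 104.8 CPM against 315.2, 406.6 and 369.5 CPM without LPS, and 429.4, 299.5 and 295.1 CPM against 140, 150.2 and 149.8 CPM with it), Thbs1, Tnfaip3, the kinase Src, the actin-capping Capg and Il1r1, the receptor of IL-1. Another 23 were higher without LPS and lower after it. Gas6 lay at 1975, 1736 and 1955 CPM in sdCAMs and 201.4, 190.5 and 216.9 CPM in MG without LPS (interaction -4.70, SE 0.17), and its levels after LPS are those given above. Ccl12 had means of 492.1 ± 141 CPM against 81.47 ± 21.7 CPM without LPS (SD, n = 3), Slc40a1 of 923.5 ± 151 CPM against 468.1 ± 64.3 CPM, Clec7a of 134.7 ± 35.1 CPM against 30.92 ± 6.25 CPM, Spp1 of 22.9 ± 23.4 CPM against 3.865 ± 0.755 CPM and Alox5 of 132.8 ± 9.01 CPM against 44.36 ± 13.8 CPM. The proton-sensing receptor Gpr65 (-5.03), Lifr, Cd72 and the survival factor Bcl2 were further members.

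**Figure D5:**
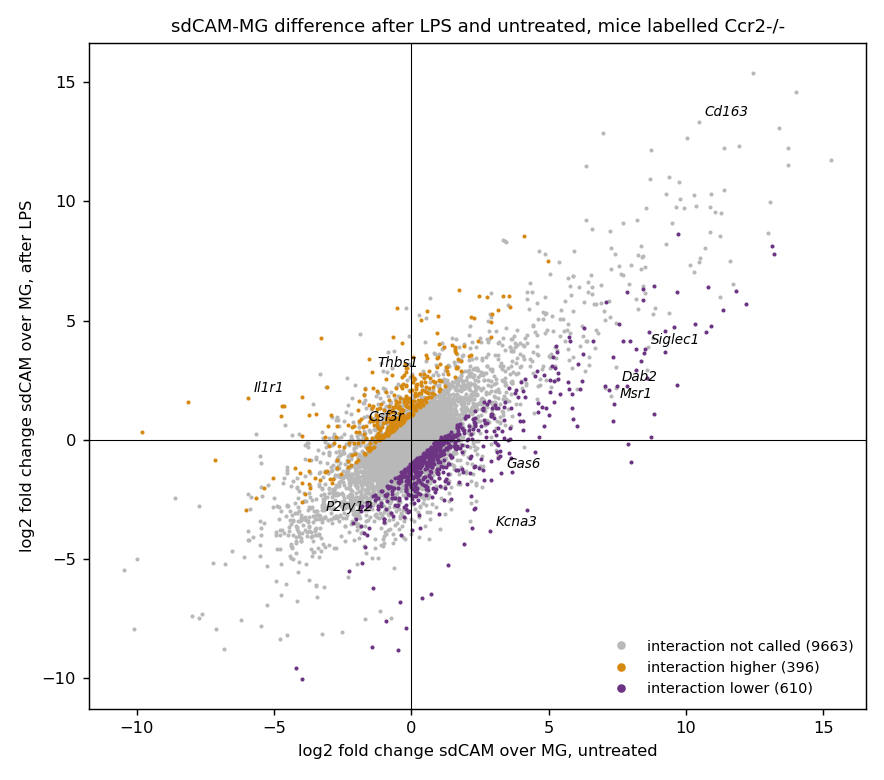
Log2 fold change of sdCAMs over MG after LPS (y axis) against that of untreated mice (x axis) for 10669 genes, coloured by the interaction of cell type and LPS, with genes shifted towards sdCAMs after LPS in orange, those shifted towards MG in purple and genes not called in grey. P2ry12 lies near the diagonal. Cd163 lies above it, at 13.34 after LPS against 10.46 untreated, with MG near 0 CPM after LPS and no call of the interaction. Siglec1, Dab2 and Msr1 lie below the diagonal, and genes at upper left and lower right changed order.

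Gene groups were set beside the same groups without LPS. All 21 border markers were higher in untreated sdCAMs, and 22 of 24 microglial markers were lower. Interferon-stimulated genes were higher in 22 members without LPS too, with a median of 2.79 against 2.19 after LPS, and Ifitm3 had means of 438.9 CPM in sdCAMs and 12.75 CPM in MG of untreated mice. MHC class I genes were higher in 5 members without LPS and 16 after it, genes of itaconate and related pathways in 1 and 9, NF-kappaB regulators in 4 and 9, and CXC chemokines in 1 and 5. Of these 5 chemokines, Cxcl1, Cxcl2, Cxcl3 and Cxcl13 were too low to be tested without LPS, and the 1 called there was Cxcl16, which was not called after LPS. Of acute phase genes, 5 passed without LPS, where Lcn2 was among those too low to be tested, and 12 after it, and Saa3 lay in untreated mice at 90.66, 1.342 and 98.31 CPM in sdCAMs and 6.267, 6.355 and 2.707 CPM in MG. These counts set conditions side by side and are not a test between them. The interaction, tested gene by gene, passed towards sdCAMs in 7 and towards MG in 2 of 22 NF-kappaB regulators, in 5 and 0 of 19 genes of itaconate and related pathways, and in 3 and 0 of 20 MHC class I genes. It passed towards MG alone in 7 of 30 interferon-stimulated genes, among them Ifitm3 (-1.73) and Oasl1 (-2.13), and in 3 of 14 acute phase genes, Lyz2 (-1.34), Wfdc17 (-2.14) and Cp (-2.57). For CXC chemokines it passed in 0 of 8, and Cxcl16 alone had an adjusted p under 0.05 (-0.84, adjusted p by edgeR = 0.0394), under the limit of change, as it alone had an unadjusted p under 0.05. Cxcl1, Cxcl2, Cxcl3 and Cxcl13 had too few counts without LPS to fix a difference to compare with. The result of 0 of 8 therefore decides nothing for these genes. Of border markers, the interaction passed in 1 towards sdCAMs and 7 towards MG, and of microglial markers in 1 and 5. Towards sdCAMs, it passed for Sod2 (2.81), Tnfaip3 (2.54), Tnip1 (2.44), Irak3 (2.12), Ccl9 (2.90) and Psme2 (1.20), and not for Saa3 (3.18, adjusted p by edgeR = 0.117), Lcn2, Cxcl2 or Rsad2. Lcn2 and Cxcl2 were too low to be tested without LPS, so that no conclusion is drawn from their result. Of 23 cytokine genes, the interaction passed towards sdCAMs in 3 and towards MG in 4. Il1a (2.39) and Il6 (4.01) were shifted towards sdCAMs, with smaller differences after LPS, and Tnf (-2.34) towards MG. Il6 had untreated means of 1.28 CPM in sdCAMs and 16.93 CPM in MG.

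Eicosanoid enzymes were lower in 1 member without LPS and in 6 after it. Ltc4s (-3.83), Hpgd (-2.33), Hpgds (-1.30) and Tbxas1 (-1.39) had interactions towards MG, and their untreated log2 fold changes were 0.04, 0.58, 0.01 and 0.09. For Ltc4s, means were 139.6 CPM in sdCAMs and 141.2 CPM in MG of untreated mice, against 3.149 to 4.633 CPM and 44.31 to 57.85 CPM in the mice given LPS. Of class II loading, the genes H2-DMa (-1.67) and H2-DMb1 (-1.56) were also shifted towards MG, with untreated log2 fold changes of -0.91 and -0.13.

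In 3 mice given BLZ945 before LPS, also labelled Ccr2-/- and sharing no sample with the comparison, 842 (7.5%) of 11234 genes were higher in sdCAMs and 635 (5.65%) were lower. Of 10878 genes tested in both, 754 were higher in both, 64.6% of those after CTL and LPS and 91.2% of those after BLZ945 and LPS, and 530 were lower in both, 49 and 84.1%. No gene was called in opposite directions. By list, 17 border markers were higher, 22 microglial markers were lower, and 12 acute phase genes, 5 CXC chemokines and 20 interferon-stimulated genes were higher. Over all genes tested, calls were fewer than after CTL and LPS, at 7.5 against 10.9% higher and 5.65 against 9.71% lower. Beside this, 4 against 9 NF-kappaB regulators were higher, and 6 against 9 genes of itaconate and related pathways. Higher as well were 6 against 9 guanylate-binding proteins and immunity GTPases and 12 against 16 MHC class I genes, and 3 CC chemokines were lower against 1. These differences in counts were not tested. Cxcl2 (2.98), Csf3 and Saa3 (5.13) were higher again. Tnf (-1.86), Il1a (-1.78) and Ccl12 (-1.35) were lower again. Il1b, which overlapped after CTL and LPS, was lower there (-1.11), and this difference between treatments was not tested.

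Whether the difference between sdCAMs and MG after CTL and LPS differed between genotypes was tested with 3 WT mice as an interaction over 12 libraries, which include all 6 of the comparison. Of 12232 genes, 1320 (10.8%) were shifted towards sdCAMs in mice labelled Ccr2-/- and 1578 (12.9%) towards MG. The median of all genes was 0.139, and 0.033 with RLE scaling, so that changes are to be read relative to this shift. The WT sdCAM libraries stood apart in ways that cannot be told apart from genotype. They held 2386672 to 7699790 counts, their top 50 genes took 55.3 to 63.5% of counts, their TMM factors were 0.337 to 0.5, ribosomal protein genes took 2.65 to 2.88% against 0.579 to 0.662% in the sdCAMs labelled Ccr2-/-, and the labels mark all 3 with a correction of immediate early genes that they do not explain. The genes shifted towards MG were led by Rplp2, Rplp1, Rpl35, Rpl37a, Rpl38 and Rps21, and Rplp2 lay at 2879, 1893 and 1720 CPM in WT sdCAMs and 64.98 to 90.44 CPM in those labelled Ccr2-/-, with interactions of -6.04 to -5.53. Those shifted towards sdCAMs were led by Leng8, C4b, Lilrb4a, Rffl, Ccr1 and Scarf1. Ccr1 lay at 206, 170.2 and 209.3 CPM in WT sdCAMs and 106.6, 20.32 and 54.67 CPM in WT MG (4.21, SE 0.48).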

How the data were processed

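Bulk RNA-seq was analysed in 24 of the libraries, 3 per cell type in each of 4 groups. Reads were aligned with STAR 2.7.11a after bcl2fastq 2.20 and counted per gene with featureCounts 2.0.8, and the study used DESeq2 1.46.0, all per the labels and methods. The authors deposited raw counts per gene, and 0 columns of the tables used matched no library. Whether counting used strand was not given in the sources used here, so overlapping antisense genes cannot be told apart. Without molecular identifiers, counts and the floor of 3 counts cover counting error only. Libraries of the comparison held 7887891 to 11330781 counts.

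Groups came from the cell type, genotype and treatment labels. Counts were filtered (filterByExpr), scaled by TMM and fitted with edgeR 4.0.16 (quasi-likelihood, R 4.3.3) with mouse as a replicate block, since both cell types came from the same mouse by the labels. Deviations from the group means correlated at 0.078, 0.056 and 0.129 within V1m, V2m and V4f. The interactions were fitted over 12 libraries with the same block. A call had an adjusted p under 0.05, two-sided, and a change of more than 1 on the log2 scale. Lower bounds of fold were set against 3 counts per library. Named genes were the 12 with the smallest p in each direction of the comparison and the 6 per direction of each interaction, at 10 CPM or more on average in the higher cell type, and from each gene list up to 4 calls per direction with the smallest adjusted p, members that define the list and members not called, with other calls given by name or by size. Some genes that the rule or the lists hold are not reported here by name, and counts and medians over lists include them. The members and lists were chosen with earlier results of these data known. The fit was tested on simulated data. Alternatives were no block, DESeq2 1.42.0, RLE scaling, other filters, no fold limit, removal of gene classes, a fit over 18 libraries and leaving out each mouse. Promoters were from RefSeq (GRCm38.p6).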

Additional observations from a re-analysis of the deposited data

Results flagged for a closer look

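The difference between sdCAMs and MG itself differed with LPS in 1035 genes and with genotype label in 2898 genes, each by an interaction term in edgeR over 12 libraries. With LPS, the difference was shifted towards sdCAMs for Abhd17b (3.13 on the log2 scale), Csf3r (2.29), Cstb (2.5), Hif1a (2.2), Dock10 (3.15) and Itgam (2.33), and towards MG for Gas6 (-4.7), Ctsc (-3.36), Dab2 (-5.25), Ms4a6c (-3.32), Gatm (-3.16) and Gpr65 (-5.03). Between genotype labels, it was shifted towards sdCAMs of mice labelled Ccr2-/- for Leng8 (3.6), C4b (3.52), Lilrb4a (4.31), Rffl (3.83), Ccr1 (4.21) and Scarf1 (10.27), and towards MG for Rplp2 (-6.04), Rplp1 (-5.9), Rpl35 (-5.8), Rpl37a (-5.53), Rpl38 (-5.85) and Rps21 (-5.73). Scarf1 lay at 0.2911, 0.08241 and 0 CPM in MG labelled Ccr2-/- and at 0.3857, 0 and 0.3034 CPM in WT sdCAMs. These levels are near or under the floor, so that the size of its shift is uncertain. Ribosomal protein genes have near-identical copies and may share reads. The share of counts in ribosomal protein genes, library depth and the correction mark moved with the WT sdCAM libraries, and their part in these results was not tested. Groups of 3 libraries were not searched for single libraries that stand apart.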

How the results depend on the processing

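Without the fold change limit, 3755 genes passed after LPS and 3118 in untreated mice; the limit alone accounts for this. Without the replicate block, 2372 genes passed after LPS against 2331 with it, of which 2232 were shared, and of the genes named in the comparison after LPS Cd180, Il12b and Pecam1 lost their call. In the fit over 18 libraries, Adamts1 (adjusted p by edgeR = 0.0623), Il12b (0.0662), Mki67 (0.061), Mmp2 (0.0608), Pecam1 (0.0726), Socs1 (0.0593) and Vcan (0.189) did not pass and Pkm was at 0.98, under the limit. Cd180 also lost its call with DESeq2, RLE scaling and removal of gene classes, at the limit, Ccl17 without the low-count filter and with that removal (adjusted p by edgeR = 0.0504 and 0.0522), and Pkm without the low-count filter. With each mouse left out in turn, sdCAM versus MG after LPS gave 1926 to 2385 genes, sdCAM versus MG untreated gave 1634 to 1796, sdCAM versus MG after BLZ945 and LPS gave 1239 to 1672, the Cell type by LPS interaction gave 839 to 951 and the Cell type by genotype interaction after LPS gave 1958 to 3219; fewer libraries entered these fits.

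Signs turned only for named genes that were not called. Without the replicate block, Ccr2 was at 0.02 and Hspa1a at 0.16. In the fit over 18 libraries, Irgm2 was at -0.02 and Bin1 at -0.01. Nr3c1 was at -0.03 without the low-count filter and under the study's low-count rule and at -0.05 in the fit over 18 libraries. With 1 mouse left out, Ccr2 ranged from -0.28 to 0.19, Nr3c1 from -0.07 to 0.09, Arg1 from -0.59 to 0.05, Il1b from -0.36 to 0.06, Il6 from -0.01 to 0.22, Bin1 from -0.02 to 0.07, Cxcl16 from -0.01 to 0.37, Egr1 from -0.08 to 0.58, Hspa1a from -0.64 to 0.18 (the fit without V2m gave no value for it), Irgm2 from -0.09 to 0.17, Wfdc21 from -0.35 to 2.47 and Rela from -0.03 to 0.13; the cause was not tested. Precision was limited by 3 mice and 2 residual degrees of freedom, and by depth for genes at or under 3 counts.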
